A study of Mus musculus with 3 samples.

Results

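Library 3 was set against library 2 across genes in single cells sorted from the mouse lumbar spinal cord. The cells of each library were chosen by the suffix of their barcode, 3 or 2, and by a depth of at least 2000 unique molecular identifiers (UMIs), the tags that count single transcripts. This left 3284 cells of library 3 and 3569 cells of library 2, of the 7522 cells in the series, and each cell was thinned to 2000 UMIs so that depth was the same in every cell. Library 1, with 408 such cells of 609 deposited and a median of 2218 UMIs per deposited cell, is given beside them for reference.

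The series profiled cells that carry a yellow fluorescent protein (YFP) from the Cx3cr1 locus, which is active in microglia and in other myeloid cells. All groups were Cx3cr1-creER-yfp/+ heterozygous mice, labelled as C57BL/6 in strain, and they differed in time: naive animals, animals 24 h and animals 48 h after the sciatic nerve was cut. Per the methods, 3 animals were pooled for each group, so each of the 3 conditions is 1 library without replicates. The sources do not say which suffix is which condition, and the libraries are therefore named by number only. A difference between library 3 and library 2 may belong to the time after injury, to the pooled animals or to the handling of the library, and these cannot be told apart.

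Microglia are the resident macrophages of the brain and spinal cord. They survey the tissue, clear debris, and divide after a peripheral nerve injury. Immediate early genes, such as those of the Fos, Jun, Egr and Klf families, encode mostly transcription factors whose mRNA appears within minutes of a stimulus without new protein synthesis and is quickly degraded. Genes of DNA replication and mitosis are transcribed in waves through the cell cycle and are largely silent in resting cells.

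Both libraries were microglial by their markers. All 10 markers of microglia fixed for the comparison had UMIs in both libraries, and every cell had UMIs of at least 2 of them. Their summed level was 23307 counts per 1000000 UMIs (CPM) in library 2 and 26344 CPM in library 3. Markers of other cells were low in level in both. The 6 oligodendrocyte genes summed to 153 and 146 CPM, and the 4 B cell genes, mostly Cd79b, to 58.6 and 42.9 CPM. The 6 endothelial genes summed to 21.7 and 31.5 CPM, the 7 erythroid genes to 22.1 and 14.5 CPM, and the 7 monocyte genes to 2.80 and 2.89 CPM. Single UMIs of such markers were common, since leaving out cells with one kept 759 cells of library 2 and 916 of library 3. T or NK cell markers had 100 UMIs over 5 genes in library 2. They had 0 UMIs in library 3, which allows up to 0.457 CPM. Median depth before thinning was close, 5952 UMIs per cell in library 2 and 5742 in library 3, and 22 and 38 cells were left out as shallower. The mitochondrial genome made up 1.6% of UMIs in library 2 and 1.27% in library 3. A total of 19 barcode sequences occurred in both libraries, and the counts without those cells are given with the others on the processing.

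Most genes had nearly the same level in both libraries. Of 7951 genes with a mean of at least 10 CPM, in 5612 (70.6%) the higher level exceeded the lower by at most 25%, and the median log2 ratio of library 3 to library 2 was -0.02. Pearson's r of the log2 levels across these genes, which are not independent replicates, was 0.94. At least 2-fold higher in library 3 were 109 genes (1.37%), and at least 2-fold lower were 159 genes (2.0%), so that 3.37% differed by 2-fold either way. The counts of list members past 2-fold given below are to be read beside these shares, and the list medians beside -0.02. The log2 ratios, and the counts and ranks of genes by ratio, are of CPM with 1 CPM added to each, which understates the change of low genes. Folds given below for single genes and summed lists are of CPM with nothing added. The lower genes were mostly of low level: among the 3166 genes with a mean of at least 50 CPM, 65 were higher (2.05%) and 17 lower (0.537%). With 1 library on each side no test was possible, and all intervals below are exact 95% intervals that cover counting error only.

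**Figure D1:**
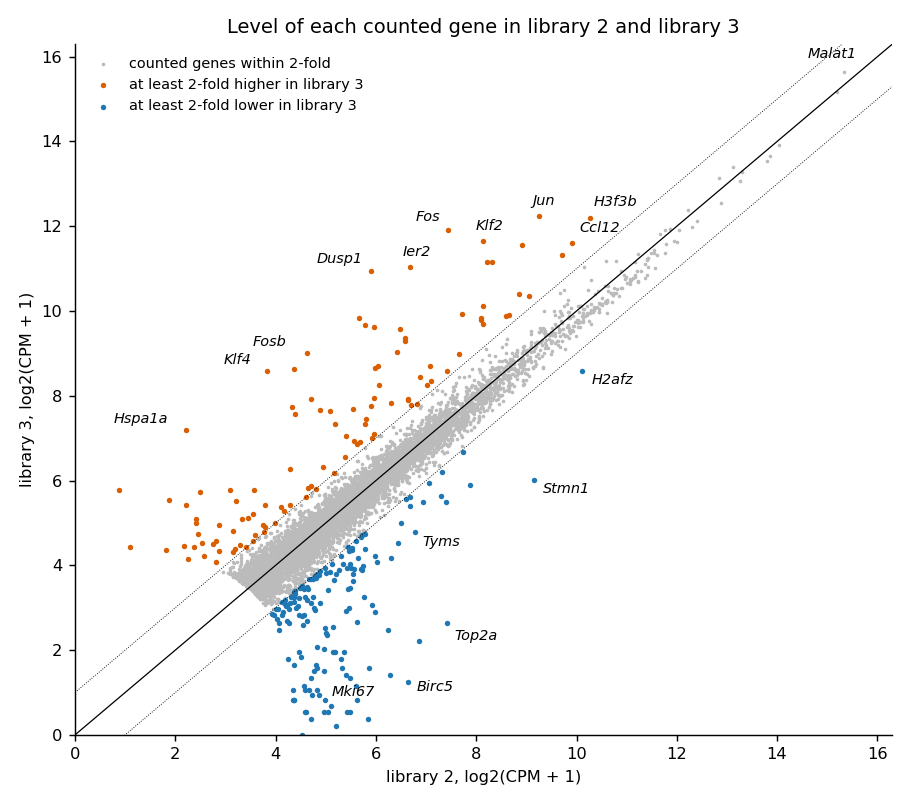
Level of each of the 7951 counted genes in library 2 (x axis) and library 3 (y axis), both as log2(CPM + 1); the solid line marks equal levels and the dotted lines 2-fold. The 109 higher genes (orange) reach high levels, such as Jun and Fos, while most of the 159 lower genes (blue) sit below 6 on the x axis.

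The promoter sequences of a few genes on either side are shown here, because these genes carry the contrast. They were chosen, from 15 promoters read, for holding words that are known from early genes, heat shock genes or genes of cell division. Each is the sequence of the 250 bases before the gene's RefSeq start on GRCm38.p6, read 5′ to 3′ on the gene's own strand. For Dusp1, the GENCODE gene span given further below extends well past that start, so the sources place it differently. Capitals mark the words searched on both strands: the cyclic AMP response element (CRE, TGACGTCA), the heat shock element (GAANNTTC), the cell cycle homology region (CHR, TTTGAA), the CCAAT box, the AP-1 site (TGANTCA), the serum response element, and the E2F site (TTTGGCGC or TTTCCCGC). The first 3 genes were higher in library 3 and the last 3 lower.
Dusp1, chr17:26508473-26508722, minus strand: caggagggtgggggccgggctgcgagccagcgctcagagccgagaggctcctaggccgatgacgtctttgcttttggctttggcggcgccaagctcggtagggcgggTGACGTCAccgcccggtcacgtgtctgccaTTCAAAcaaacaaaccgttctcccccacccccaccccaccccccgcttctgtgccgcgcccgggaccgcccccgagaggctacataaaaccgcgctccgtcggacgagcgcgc
Btg2, chr1:134079156-134079405, minus strand: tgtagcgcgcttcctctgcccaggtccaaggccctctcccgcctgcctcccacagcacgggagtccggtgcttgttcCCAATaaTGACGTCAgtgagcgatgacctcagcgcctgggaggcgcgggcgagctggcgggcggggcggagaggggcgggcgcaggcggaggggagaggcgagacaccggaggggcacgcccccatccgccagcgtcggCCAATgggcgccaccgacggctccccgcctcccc
Hspa1a, chr17:34972157-34972406, minus strand: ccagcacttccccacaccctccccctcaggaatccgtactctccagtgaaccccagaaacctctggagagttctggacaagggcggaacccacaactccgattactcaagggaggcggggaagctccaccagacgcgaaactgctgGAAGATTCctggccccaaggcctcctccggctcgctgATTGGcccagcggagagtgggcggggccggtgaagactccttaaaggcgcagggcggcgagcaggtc
Top2a, chr11:99024190-99024439, minus strand: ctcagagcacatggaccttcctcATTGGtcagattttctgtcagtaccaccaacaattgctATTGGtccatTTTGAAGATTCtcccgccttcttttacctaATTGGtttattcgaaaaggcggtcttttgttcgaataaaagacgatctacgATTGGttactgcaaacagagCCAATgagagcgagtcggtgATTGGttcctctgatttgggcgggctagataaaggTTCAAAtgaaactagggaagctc
Mki67, chr7:135716380-135716629, minus strand: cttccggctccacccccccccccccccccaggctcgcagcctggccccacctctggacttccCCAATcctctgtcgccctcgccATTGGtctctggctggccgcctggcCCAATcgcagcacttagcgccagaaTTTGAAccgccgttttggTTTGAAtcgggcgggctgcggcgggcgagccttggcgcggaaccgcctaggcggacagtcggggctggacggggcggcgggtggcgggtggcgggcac
Cdk1, chr10:69352913-69353162, minus strand: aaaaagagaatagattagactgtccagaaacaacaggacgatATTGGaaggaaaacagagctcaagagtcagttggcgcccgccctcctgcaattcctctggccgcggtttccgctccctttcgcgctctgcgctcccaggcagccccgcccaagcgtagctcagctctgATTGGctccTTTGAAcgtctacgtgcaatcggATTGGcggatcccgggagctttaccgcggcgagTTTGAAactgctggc

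Dusp1 and Btg2 each held 1 CRE, beginning 143 and 166 bases before the start, and Dusp1 also held a CHR and Btg2 2 CCAAT boxes. Hspa1a held a heat shock element 104 bases before the start and 1 CCAAT box. Fos, Fosb, Klf4 and Atf3, also read, held none of the words in this window. Of the other higher genes read, Jun held a heat shock element and a CCAAT box, and Junb a CCAAT box. Top2a, Mki67 and Cdk1 each held 2 CHR words and several CCAAT boxes, of which Top2a had 6. In Top2a the CHR beginning 179 bases before the start overlaps a heat shock element. The other lower genes read varied. Ccnb2 held a CHR and CCAAT boxes, Rrm2 only a CCAAT box, and Tyms only a serum response element and a heat shock element. Over windows from 250 bases before to 50 after the start, CHR was found in 50 of the 128 lower genes with a promoter in the table (39.1%) and in 910 of 6439 of all counted genes (14.1%). E2F words were found in 12.5% of the lower genes and 3.90% of all, and the CCAAT box in 53.1% and 42.8%. The AP-1 site (2.34% against 5.64%), CRE (4.69% against 3.88%), the serum response element (1.56% against 1.51%) and the heat shock element (10.2% against 7.04%) completed the search. The same count is void for the higher genes, because only 81 of 109 (74.3%) had a promoter in the table, so the sides were not compared with each other. These are counts of letters, and no factor's binding was measured.

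By structure, the higher genes were short. Their median gene length was 4.65 kb with 3 exons, and 60.6% had 4 exons or fewer. All counted genes had a median of 21.8 kb and 9 exons, with 18.1% at 4 exons or fewer, and the lower genes had 17.5 kb and 9 exons.

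Of the 15 highest ratios among genes with a mean of at least 50 CPM, 9 belonged to immediate early genes. Fos, Klf2, Ier2 and Dusp1 were found in at least 96.0% of the cells of library 3, Egr1 in 82.4%, and Fosb, Atf3, Klf4 and Ier3 in 57.2% to 32.1%. Dusp1, a phosphatase that switches off MAP kinases (chr17:26505590-26562128, minus strand, GRCm38), had 58.4 CPM (53.0 to 64.3) in library 2 and 1980 CPM (1946 to 2014) in library 3, a 33.9-fold difference (30.7 to 37.5). Fos, which pairs with Jun proteins to form AP-1 (chr12:85473890-85477273, plus strand), had 172 CPM (162 to 182) and 3847 CPM (3800 to 3895), 22.4-fold (21.1 to 23.7). Cells with a Fos UMI went from 26.1% to 99.5%, and cells with a Dusp1 UMI from 10.7%. Klf2, a zinc finger factor that restrains inflammatory transcription (chr8:72319033-72321656, plus strand), had 281 CPM in library 2 and 3205 CPM in library 3, 11.4-fold (10.9 to 11.9). These 3 genes also had more UMIs in each positive cell: Fos averaged 1.32 UMIs per positive cell in library 2 and 7.73 in library 3.

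The immediate early genes were held in 4 lists, which were AP-1 factors, the Egr, Nr4a, Ier and Klf genes, the MAP kinase phosphatases with other feedback genes, and the regulators of mRNA decay. Of their 35 counted genes, 22 were at least 2-fold higher and 0 lower, with a median log2 ratio of 2.20 against -0.02 over all counted genes. Of all the genes in these lists, 18 also stand in the study's own table of differences between such cells, so the lists are not independent of these libraries. Summed, the lists had 11.3 UMIs per cell in library 2 and 67.0 in library 3, a ratio of 5.96 (5.89 to 6.02). Library 1 had 11.7 UMIs per cell in sum, close to library 2, but the parts of the sum differed. The decay list was higher in library 1 than in library 2 (3.98 and 2.91 UMIs per cell), as were the phosphatases (1.38 and 0.997). The AP-1 list was lower (4.37 and 4.77), as was the Egr, Nr4a, Ier and Klf list (2.01 and 2.57). Fos had 28.2 CPM (17.9 to 42.3) in library 1 and 172 in library 2, and Klf2 66.2 and 281. Atf3 had 27.0 and 19.5 CPM, with overlapping intervals.

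Among AP-1 factors, 6 of 8 counted genes passed 2-fold. Fosb had 23.5 CPM in library 2 and 511 CPM in library 3 (21.7-fold, 18.6 to 25.5), and Atf3, a stress-induced member of the ATF family, had 19.5 and 397 CPM (20.4-fold, 17.2 to 24.4). The Jun family was already well expressed in library 2. Jun went from 610 to 4854 CPM (7.95-fold, 7.70 to 8.21), Junb from 479 to 3021 CPM (6.31-fold) and Jund from 315 to 2279 CPM (7.23-fold). Library 1 had 374 CPM of Jun, 467 of Junb and 330 of Jund, nearer to library 2 than to library 3. Batf, within 2-fold, had 11.2 and 14.9 CPM.

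Of the 11 counted Egr, Nr4a, Ier and Klf genes, 8 passed 2-fold. Egr1, a zinc finger factor downstream of growth signals, had 49.7 CPM in library 2 and 910 CPM in library 3 (18.3-fold, 16.4 to 20.4), and the fold was 28.3 without cells with a marker of another cell type. Ier2 had 101 and 2100 CPM (20.8-fold, 19.3 to 22.4), and Klf4 had 13.2 and 384 CPM (29.2-fold, 23.7 to 36.2). Ier3 followed at 18.9 and 214 CPM (11.3-fold), Klf6 at 211 and 973 CPM (4.62-fold), and Ier5 at 282 and 1101 CPM (3.91-fold). Family membership did not fix the direction, since Klf10, which responds to TGF-beta, had 37.5 CPM in library 2 and 25.1 CPM in library 3, while Klf3 and Klf7 had log2 ratios of 0.15 and 0.22.

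Genes that limit signalling were high together with the factors. Besides Dusp1, the ERK phosphatase Dusp6 had 282 CPM in library 2 and 832 CPM in library 3 (2.95-fold), and 4 of the 8 counted genes of this list passed 2-fold. Regulators of mRNA decay also had 4 of 8 past 2-fold. Zfp36, which encodes tristetraprolin and destabilizes cytokine mRNAs, had 95.1 and 622 CPM (6.54-fold, 6.03 to 7.10), and Btg2, an antiproliferative partner of the deadenylase complex, had 297 and 2296 CPM (7.73-fold, 7.39 to 8.10). Its relative Btg1 had 384 and 946 CPM (2.46-fold). Among RGS proteins and other signal regulators, 8 of 13 passed 2-fold, led by Gem (4.62 and 52.1 CPM), Ppp1r15a (28.4 and 201 CPM), Rgs1 (61.9 and 403 CPM) and Socs3, the feedback inhibitor of STAT3 signalling (85.0 and 525 CPM).

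**Figure D2:**
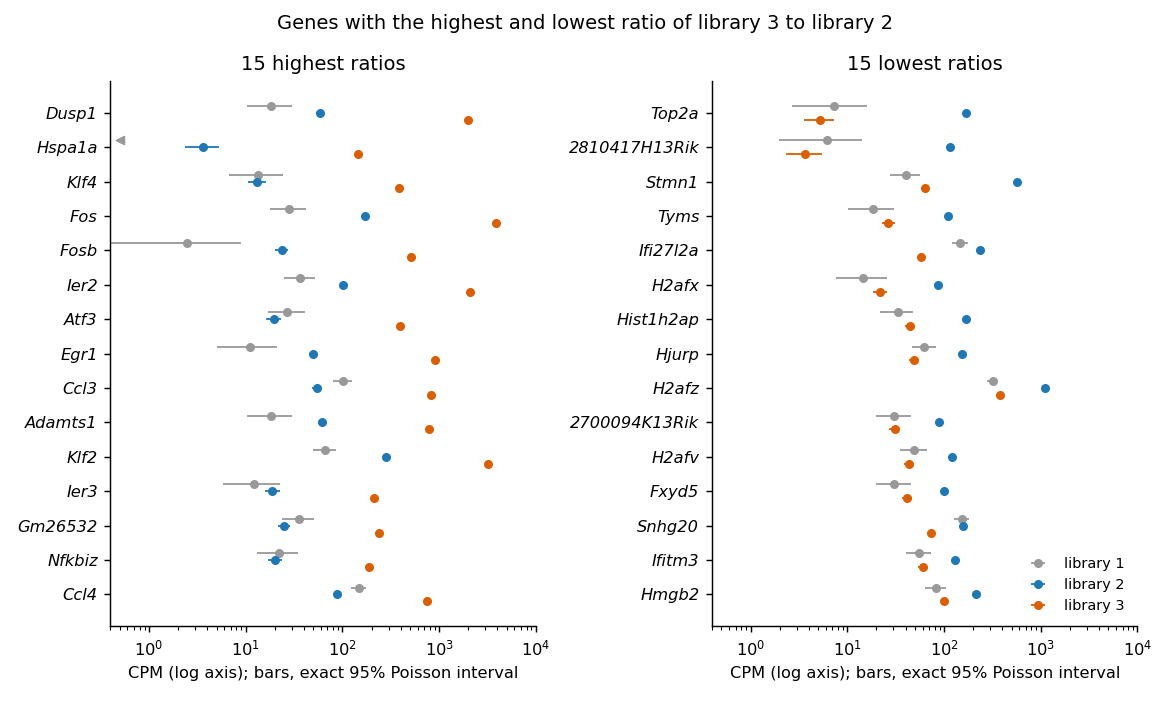
CPM (log axis) of the 15 highest and 15 lowest ratios among genes with a mean of at least 50 CPM, in libraries 1 (grey), 2 (blue) and 3 (orange), with exact 95% Poisson intervals; the arrowhead marks 0 UMIs. Library 1 lies near library 2 or below it for most of the highest genes and near library 3 for most of the lowest.

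Cells of the libraries hardly overlapped in their early gene sum. The sum ran from 0 to 32 UMIs in library 2, with 95% of cells at or below 19, and from 14 to 141 UMIs in library 3. Only 1 of 3284 cells of library 3 was at or below 19, and 0 of 3569 cells of library 2 reached 35, the 5th percentile of library 3. Within library 3 the sum was spread widely, with a variance of 7.79 times the mean, against 1.58 times in library 2. It also had 2 humps: 18.3% of the cells had 40 to 49 UMIs, 11.9% had 60 to 69 and 14.7% had 70 to 79.

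**Figure D3:**
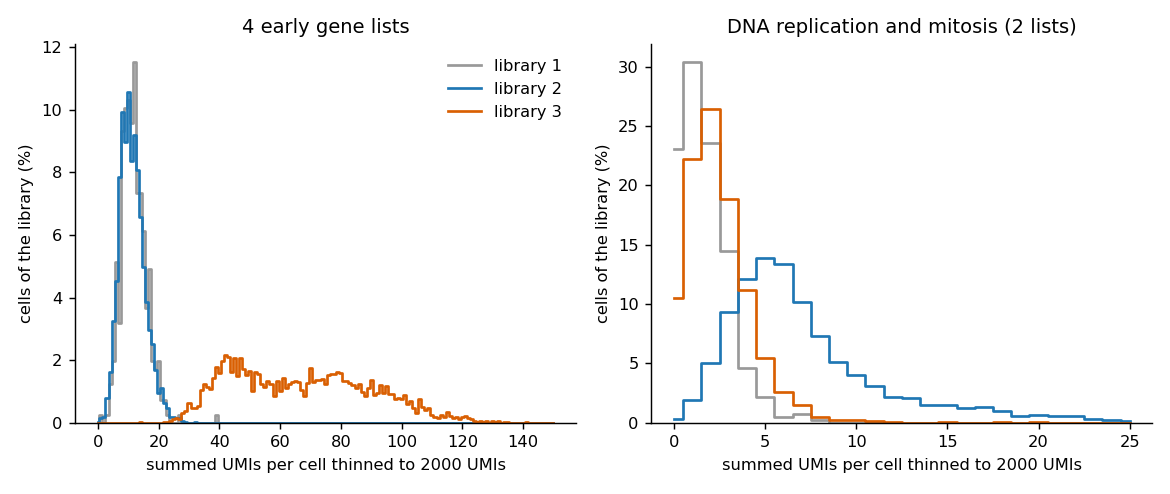
Share of the cells of each library (y axis, %) by summed UMIs per thinned cell (x axis) for the 4 early gene lists (left) and for the DNA replication and mitosis lists together (right). On the left the sums of libraries 1 and 2 both have a median of 11, while library 3 lies apart with a median of 66. On the right library 2 is shifted to higher sums.

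The early genes varied together from cell to cell in library 3. Across its 3284 cells, the AP-1 sum had a Pearson's r of 0.63 with the Egr, Nr4a, Ier and Klf sum, 0.50 with the phosphatases, 0.54 with the mRNA decay genes and 0.43 with the list of RGS proteins and other signal regulators. In library 2 these values were 0.14, 0.05, 0.12 and 0.09, with far fewer UMIs behind them. The AP-1 sum had r of 0.13 with the depth of the cell before thinning in library 3, -0.13 with the homeostatic list and -0.30 with ribosomal proteins. Its r with the cytokine list was 0.05 and with the heat shock list 0.07. All these points are cells of 1 library that share its depth and its fixed total of 2000 UMIs.

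Heat shock genes were mostly above 1 in ratio, and a few were far above it. Of 20 counted chaperone genes, 19 had a ratio above 1, with a median log2 ratio of 0.50, and 3 passed 2-fold: Hspa1a, Hspb1 and Dnajb1. Hspa1a, the inducible HSP70 chaperone (chr17:34969190-34972156, minus strand), had 3.64 CPM (2.38 to 5.34) in library 2 and 144 CPM (135 to 154) in library 3, and its share of cells went from 0.672% to 19.6%. The fold was 39.6 (26.8 to 60.9), with 26 UMIs behind the library 2 value. It was 34.3 with another random draw and 26.4 without thinning in cells with at least 2000 UMIs, which is below that interval. Without the 5% of cells with the most UMIs it was 26.0. Hspa1a has a near-identical neighbour, Hspa1b, so the split of reads between them is uncertain. Hspb1, a small heat shock protein, had 6 UMIs in library 2 and 352 in library 3 (63.8-fold, 29.0 to 175), and Dnajb1, an HSP40 cochaperone, had 61.5 and 247 CPM (4.01-fold, 3.61 to 4.47). The others lay within 2-fold, from Hspe1 with a log2 ratio of -0.07 to the constitutive Hspa8 with 0.89 (1133 and 2100 CPM), and Hsf1, the factor that drives the response, had 25.6 and 31.7 CPM. The whole list summed to 9.33 UMIs per cell in library 2 and 14.7 in library 3. In library 3, Dnajb1 was found in 36.7% of the 643 cells with Hspa1a (33.0 to 40.6) and in 37.5% of the others (35.7 to 39.4). Hspb1 was found in 11.4% (9.01 to 14.1) and 8.60% (7.55 to 9.73) of the same groups, with overlapping intervals. With so few UMIs per cell, these shares cannot show whether the same cells express the genes.

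Chemokines and cytokines were higher in library 3, with 9 of 18 counted genes past 2-fold and 1 below it. Ccl3 and Ccl4, which attract monocytes and lymphocytes, had 54.1 and 88.0 CPM in library 2 and 818 and 756 CPM in library 3 (15.1-fold, 13.6 to 16.8, and 8.60-fold, 7.91 to 9.36). By CPM, library 1 was above library 2 here, with 100 CPM of Ccl3 (79.9 to 125) and 148 CPM of Ccl4 (123 to 177). These UMIs lay in 27 cells for Ccl3 and 22 cells for Ccl4, with 3.04 and 5.5 UMIs per positive cell. The variance of Ccl4 in library 1 was 22.3 times the mean, so the counting intervals understate the spread. The share of positive cells was not higher in library 1. It was 5.39% in library 1 and 10.96% in library 2 for Ccl4. For Ccl3 it was 6.62% and 7.96%, with overlapping intervals. Ccl2 had 64.4 and 418 CPM (6.49-fold), Ccl7 had 8.27 and 44.8 CPM (5.42-fold), and Ccl12, all 3 being ligands of CCR2, had 957 and 3116 CPM (3.26-fold). Tnf had 35.4 and 160 CPM (4.51-fold, 3.93 to 5.20), Il1b had 3.78 and 16.8 CPM (4.43-fold, 2.88 to 7.02) and Il1a had 102 and 220 CPM (2.15-fold). Ccl5 went the other way, with 28.7 CPM in library 2 and 7.61 CPM in library 3 (3.77-fold lower, 2.76 to 5.25). Its counts in library 2 were uneven across cells, with a variance of 7.91 times the mean, against 1.02 times in library 3.

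Ccl3 and Ccl4 also differed in how they were distributed. In library 2 a few cells held many copies, with a variance of 8.22 times the mean for Ccl4, found in 10.96% of cells. In library 3 it was found in 64.4% of cells with a variance of 4.44 times the mean. Cells with Ccl3 in library 3 had Ccl4 in 66.5% of cases (64.4 to 68.4), and the remaining cells in 60.2% (57.2 to 63.2).

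In the NF-kB list, 5 of 19 counted genes were at least 2-fold higher, and 4 of them, Nfkbiz, Nfkbia, Nfkbid and Tnfaip3, restrain the pathway or act as IkB proteins. Nfkbiz, an atypical IkB protein that acts in the nucleus, had 20.03 CPM in library 2 and 190.3 CPM in library 3 (9.50-fold, 7.99 to 11.4). Nfkbia, which encodes IkB-alpha, had 201 and 506 CPM (2.52-fold, 2.37 to 2.68), and Nfkbid had 12.5 and 30.0 CPM (2.41-fold). Tnfaip3, which encodes the ubiquitin-editing enzyme A20 and was studied in this series, had 7.84 CPM (5.93 to 10.2) and 26.8 CPM (22.98 to 31.1), while library 1 had 24.5 CPM (14.97 to 37.9), whose interval overlaps that of library 3. Rela and Nfkb1, the subunits of the classical dimer, had log2 ratios of 0.29 and 0.28. The list's median log2 ratio was 0.29, against -0.02 over all counted genes.

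On the other side, the genes of mitosis were mostly far lower in library 3. Of 34 counted genes of mitosis and the kinetochore, 30 were at least 2-fold lower and 0 higher, with a median log2 ratio of -3.52 against -0.02 over all counted genes. Top2a, the topoisomerase that untangles replicated chromosomes (chr11:98992943-99024189, minus strand), had 169 CPM (160 to 179) in library 2 and 5.18 CPM (3.58 to 7.23) in library 3, 32.7-fold lower (23.3 to 47.4). Mki67, which encodes the Ki-67 protein used to mark cycling cells (chr7:135689784-135716361, minus strand), had 76.2 CPM (69.9 to 82.9) and 1.68 CPM (0.836 to 2.997), 45.5-fold lower (25.2 to 91.7). Cdk1, the kinase that drives entry into mitosis (chr10:69335146-69352938, minus strand), had 38.4 CPM (34.0 to 43.2) and 2.44 CPM (1.39 to 3.96), 15.8-fold lower (9.53 to 28.0). Library 1 was low as well, with 7.35 CPM of Top2a (2.70 to 16.0), 2.45 of Mki67 (0.297 to 8.85) and 3.68 of Cdk1 (0.758 to 10.7). These values rest on 6, 2 and 3 UMIs, and those of Top2a and of Mki67 each lay in 1 cell. For each gene, library 2 stood above both others. With few UMIs in library 3 these folds moved with the random draw of the thinning and the choice of cells, from 43.8 to 105-fold for Mki67, 8.79 to 15.8-fold for Cdk1 and 28.6 to 42.3-fold for Top2a.

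The rest of the list went the same way with few exceptions. Birc5, which encodes survivin of the chromosomal passenger complex, had 704 UMIs in library 2 and 9 in library 3 (72.0-fold lower, 37.7 to 158). Ube2c, the ubiquitin-conjugating enzyme of the anaphase-promoting complex, had 401 and 2 UMIs, Prc1 had 299 and 3, and Nusap1 had 255 and 1. The mitotic cyclin Ccnb1 had 195 and 7 UMIs (25.6-fold lower, 12.2 to 64.6). Cks2, Kif2c, Bub3 and Pttg1 lay within 2-fold, and Pttg1, which encodes securin, was slightly above 1 with 53.4 and 64.9 CPM.

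DNA replication genes were lower too, but by less. Of 34 counted genes, 20 were at least 2-fold lower, 0 were higher, and all 34 had a ratio below 1, with a median log2 ratio of -1.08. The enzymes of nucleotide supply led: thymidine kinase Tk1 had 57.2 CPM in library 2 and 1.98 CPM in library 3 (28.9-fold lower, 16.7 to 54.7), the ribonucleotide reductase subunit Rrm2 had 41.0 and 1.68 CPM (24.5-fold lower, 13.5 to 49.6), and thymidylate synthase Tyms had 109 and 26.6 CPM (4.10-fold lower, 3.48 to 4.86). The MCM helicase subunits, which license origins before S phase, were lower by less than 2-fold, as with Mcm2 (27.7 and 19.9 CPM), Mcm3 (70.9 and 55.4 CPM) and Mcm7 (52.3 and 27.6 CPM). Pcna, the sliding clamp, had 68.2 and 48.3 CPM (1.41-fold lower, 1.23 to 1.63). Summed, the replication list had 3.56 UMIs per cell in library 2 and 1.73 in library 3 (2.06-fold lower, 1.995 to 2.13), and the mitosis list 3.66 and 0.694 (5.28-fold lower, 5.05 to 5.52). In library 1 they had 1.04 and 0.65.

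Cell cycle regulators upstream were mixed. Of 22 counted G1 cyclins, kinases, inhibitors, E2F factors and Myc, 7 were at least 2-fold lower and 1 higher. The E cyclins, which start S phase, were lower, with Ccne2 at 40.2 and 2.89 CPM (13.9-fold, 8.74 to 23.4) and Ccne1 at 30.4 and 3.04 CPM (9.98-fold, 6.31 to 16.7), and E2f1 had 50.9 and 14.2 CPM (3.59-fold). Myc, a growth-promoting factor named by the study, was the 1 higher gene, with 33.1, 40.5 and 92.3 CPM in libraries 1, 2 and 3 (2.28-fold from library 2 to library 3, 1.98 to 2.63). The D cyclin Ccnd1 had 128 and 163 CPM, Cdk4 had 131 and 117 CPM, and Cdkn1a, which encodes the inhibitor p21, had 271 and 296 CPM.

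Division-linked UMIs in library 2 were found in most of its cells, with a tail of cells that held more. The mitosis list had at least 1 UMI in 94.9% of library 2 cells (94.2 to 95.6) and in 49.2% of library 3 cells (47.5 to 50.9), and at least 5 UMIs in 24.96% and 0.274%. The 10% of library 2 cells with the most held 30.4% of the list's UMIs. The same share was 25.5% for the replication list, 23.3% for the cytokine list, 17.5% for the early gene lists and 17.1% for the heat shock list. The mitosis sum had a variance of 2.77 times the mean, a median of 3 and a 95th percentile of 10. Top2a was found in 36.4% of the 481 library 2 cells with Mki67 (32.1 to 40.9) and in 24.3% of the others (22.8 to 25.8). RNA free in the droplets can give UMIs to cells that do not express a gene, and its level was not measured, because neither library held enough cells of another type to read it from.

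Histones and cytoskeletal genes went both ways. Of 18 counted histones and chromatin proteins, 3 were at least 2-fold higher and 5 lower, and the median log2 ratio of -0.24 differed in sign from the sum, which was 1.47-fold higher. Variants linked to division or chromatin turnover were lower in library 3: H2afz had 1108 CPM (1084 to 1133) in library 2 and 382 CPM (367 to 397) in library 3 (2.90-fold lower), H2afx had 86.3 and 21.9 CPM (3.94-fold lower), H2afv had 121 and 43.9 CPM (2.76-fold lower), and the chromatin protein Hmgb2 had 213 and 100.5 CPM (2.12-fold lower). Hist1h2ap, at 168 and 44.3 CPM, belongs to a family of near-identical genes, so its counts are uncertain. In contrast, H3f3b, one of the genes for the replication-independent histone H3.3, had 1228 and 4665 CPM (3.8-fold higher, 3.71 to 3.89), while H3f3a, which encodes the same protein, had 392 and 337 CPM. The linker histones Hist1h1c (54.8 and 175 CPM) and H1f0 (50.01 and 119 CPM) were also above 2-fold. Stmn1, which destabilizes microtubules, had 40.4, 570 and 63.5 CPM in libraries 1, 2 and 3 (8.98-fold lower from library 2 to library 3, 8.12 to 9.96), and cells with a UMI went from 66.0% to 11.7%. The tubulins Tubb5 (644 and 404 CPM) and Tuba1b (639 and 412 CPM) stayed within 2-fold.

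**Figure D4:**
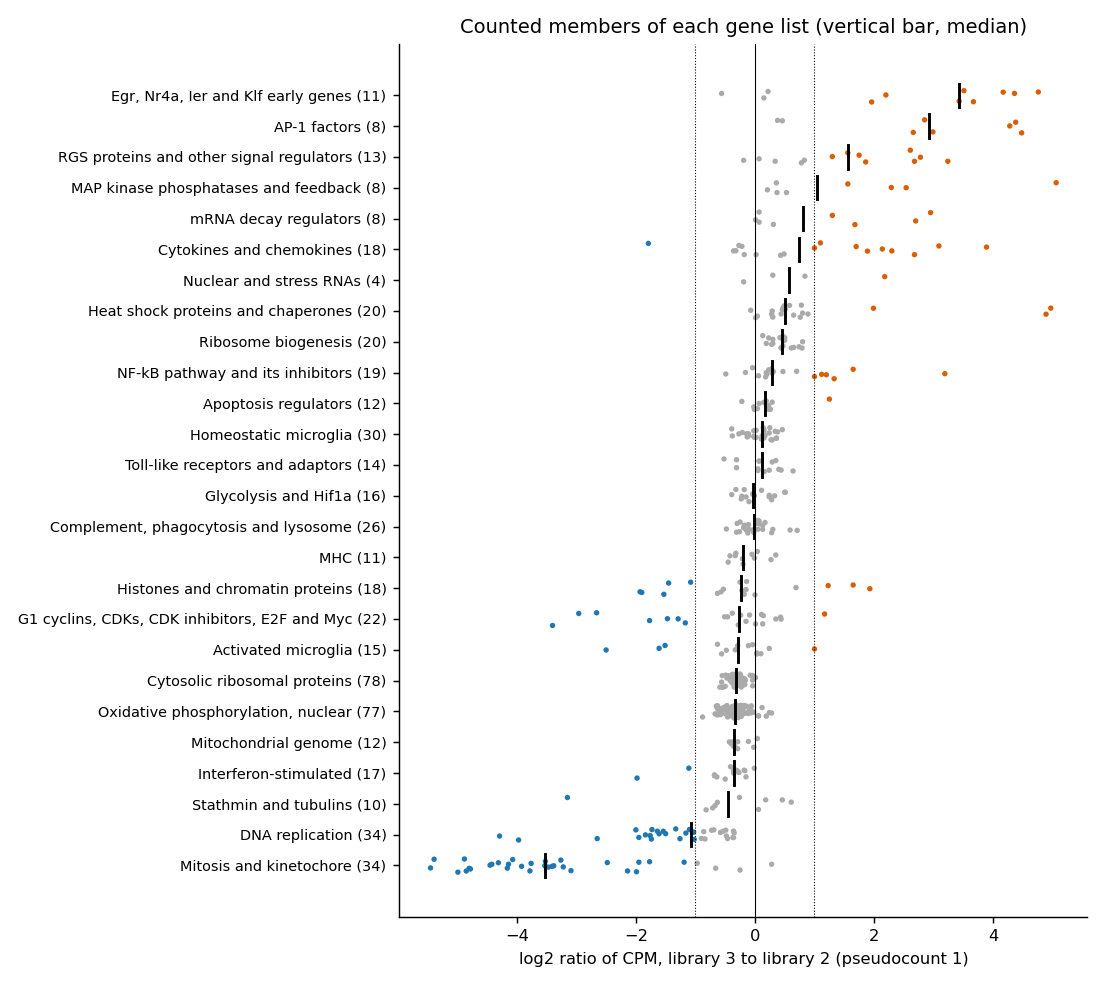
Log2 ratio of CPM, library 3 to library 2, of each counted member of the 26 gene lists (points; the number counted is in brackets), with the list's median as a vertical bar and dotted lines at 2-fold. The early gene lists lie to the right, with medians of 3.43 and 2.92 at the top, and the mitosis list lies farthest to the left, with a median of -3.52.

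Several lists, that of microglial identity among them, had no gene past 2-fold. Over all 7951 counted genes, 3.37% passed 2-fold either way, so 0 in a short list is near that share. All 30 homeostatic genes stayed within 2-fold, with log2 ratios from -0.39 (Ltc4s) to 0.46 (Smad3) and a median of 0.12. Cst3, the most abundant of the list, had 37457 CPM in library 2 and 37016 CPM in library 3. Of 26 complement, phagocytosis and lysosome genes, 0 passed 2-fold, nor did any of 14 Toll-like receptor genes and adaptors, 11 MHC genes or 16 genes of glycolysis. Of 12 apoptosis regulators, Mcl1, a short-lived survival protein, was above 2-fold with 99.0 and 237 CPM (2.39-fold, 2.18 to 2.62).

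Interferon-stimulated and activation genes leaned to library 2. All 17 counted interferon-stimulated genes had a ratio below 1, with a median log2 ratio of -0.36, and 2 passed 2-fold, of which Ifitm3 did not under every setting. Ifi27l2a had 147, 234 and 58.3 CPM in libraries 1, 2 and 3, 4.005-fold lower in library 3 than in library 2 (3.58 to 4.49), and the antiviral membrane protein Ifitm3 had 55.1, 131 and 60.1 CPM (2.18-fold lower, 1.94 to 2.46). The Ifitm3 difference was 1.98-fold with another random draw and 1.76-fold without cells with a marker of another cell type. Isg15 had a log2 ratio of -0.01. Among 15 counted genes of activated microglia, Spp1, which encodes osteopontin (21.0 and 2.89 CPM, 7.26-fold lower), Lgals1 (25.2 and 7.61 CPM) and Cst7 (34.7 and 11.6 CPM) were lower, Atf4 was 2.01-fold higher, and Apoe had 524 and 535 CPM.

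Genes of translation and respiration shifted a little and together. Of 78 counted ribosomal protein genes, 77 had a ratio below 1 and 0 passed 2-fold, with a median log2 ratio of -0.32, and their share of UMIs was 11.1% in library 2, 8.79% in library 3 and 8.81% in library 1. Nuclear genes of oxidative phosphorylation had 71 of 77 below 1 with a median of -0.34, and 11 of 12 genes of the mitochondrial genome were below 1 with a median of -0.35. Ribosome biogenesis genes went the other way, with all 20 above 1 and a median of 0.46, such as the helicase Ddx21 (82.9 and 139 CPM). Malat1, a nuclear RNA, had 41155 and 50609 CPM (1.23-fold), and Neat1, the scaffold of paraspeckles, had 66.1 and 303 CPM (4.59-fold, 4.15 to 5.08). The 4 early gene lists took 0.562% of the UMIs of library 2 and 3.35% of those of library 3, and with totals taken without the early and heat shock genes the median log2 ratio of all genes moved from -0.02 to 0.02.

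Nearly all higher genes were also higher when the cells with these division genes were left out. In cells without a UMI of Mki67, Top2a or Cdk1 at full depth, 1050 in library 2 and 3126 in library 3, 103 of the 109 higher genes were still at least 2-fold higher. There, Fos had 161 and 3834 CPM, Dusp1 55.7 and 1965 CPM, and Klf2 276 and 3238 CPM. Of the 109 lower genes outside the replication and mitosis lists, 73 were still at least 2-fold lower in these cells. Stmn1 had 448 and 61.9 CPM, H2afz 978 and 380 CPM, and Ifi27l2a 224 and 60.6 CPM. Hmgb2 (149.5 and 97.3 CPM) and Hist1h2ap (85.7 and 44.0 CPM) came within 2-fold. RNA linked to division remained: 2810417H13Rik, the gene of a PCNA-associated factor, had 89.5 and 4.32 CPM, and H2afx 74.29 and 18.55 CPM. No cell of library 2 lacked all UMIs of the replication and mitosis lists. The genes were called on all cells, and in library 3 this subset is 3126 of 3284. The counts are therefore not a separate test.

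Other genes among the 15 highest and 15 lowest at a mean of at least 50 CPM were in none of the lists. Adamts1, a secreted metalloprotease, had 18.4, 61.4 and 781 CPM in libraries 1, 2 and 3 (12.7-fold from library 2 to library 3, 11.6 to 14.1), and the gene model Gm26532 had 35.5, 25.1 and 240 CPM (9.56-fold). At the low end, 2810417H13Rik, which encodes a PCNA-associated factor, had 6.13, 115 and 3.65 CPM (31.4-fold lower, 20.9 to 49.3). Its library 3 value rests on 24 UMIs. The fold ran from 20.6 to 39.8 over the alternatives, lowest without the barcodes present in both libraries, where the cells were also thinned anew. Hjurp, the chaperone that places the centromeric histone, had 62.5, 155 and 49.0 CPM (3.17-fold lower). Fxyd5 had 30.6, 101 and 41.3 CPM (2.44-fold lower), and 2700094K13Rik had 30.6, 89.8 and 30.9 CPM (2.90-fold lower). Snhg20, a noncoding RNA that hosts a small nucleolar RNA, had 152, 158 and 73.1 CPM, so that it was library 3 that stood apart (2.17-fold lower, 1.95 to 2.42). Without cells with a marker of another cell type, Fxyd5 was 1.87-fold and Snhg20 1.87-fold lower.

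Some genes differed in evenness while their level did not. Among 2386 genes with a mean of at least 50 CPM and levels that differed by at most 25%, the median variance to mean ratio across cells was 1.01 in both libraries. Apoe, the lipid carrier, had the largest increase in this ratio, from 4.71 in library 2 to 7.66 in library 3, with 57.4% and 55.4% of cells positive, and Cdkn1a went from 1.30 to 1.71. Actb, the cytoskeletal actin, went from 2.28 to 1.84.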

How the data were processed

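YFP-positive cells of the lumbar spinal cord were profiled with a droplet-based 3′ kit, whose version differs between the labels and the methods. The deposited file holds raw counts of UMIs, which the authors did not normalize, for 27998 genes in 7522 cells. The submitters' processing notes name Cell Ranger 2.1.1 and mm10, but how cells were called is not given in the sources used here. Doublets were excluded in the sort per the methods, and no doublet caller was run here.

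Cells were assigned to libraries by barcode suffix. Those with at least 2000 UMIs were thinned to 2000 without replacement (seed 1), summed per library and scaled to CPM, with a precision set by 7138000 UMIs in library 2 and 6568000 in library 3. A gene was counted with a mean of at least 10 CPM over both libraries and called past 2-fold on CPM plus 1. With 1 library per condition there was no test, and the study's count model on single cells was not used. CPM have exact Poisson intervals, shares of cells Clopper-Pearson intervals and folds exact conditional binomial intervals, at 95%. PCR and capture are not covered by them, and a count of 0 was given a limit of 3 counts.

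Named were the 15 highest and 15 lowest ratios at a mean of 50 CPM or more, up to 6 leading members of each of 26 gene lists, the 2 most abundant of lists with none past 2-fold, genes the study names (Myc, Mki67, Cdk1 and Tnfaip3 here), the 6 largest changes each way in variance to mean ratio, and markers with at least 10 UMIs. Some named genes are not reported here. Other list members and genes were named after their values were seen. The contrast, the members and the lists were chosen with earlier results of these data known. Gene positions came from GENCODE M21 (GRCm38) through the Ensembl identifier, found for 7946 of 7951 genes, and the authors' annotation may differ. Promoters are from RefSeq on GRCm38.p6.

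The ratio step and its intervals were tested on simulated data. Alternatives were other seeds, depths and filters, no thinning, TMM scaling (edgeR), other totals and pseudocounts, and subsets of cells. Software was Python 3.11.15, numpy 2.4.6, scipy 1.17.1, pandas 2.3.3, matplotlib 3.10.9, R 4.3.3 and edgeR 4.0.16.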

Additional observations from a re-analysis of the deposited data

How the results depend on the processing

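Of the 904 values of single genes and lists under the 14 alternatives, 712 stayed within the counting interval of the value reported and 192 moved outside it. Of the results that were at least 2-fold, 0 changed direction. Direction did change for 6 results near 1 (ratios of 0.967 to 1.09), among them Apoe, Cd83, Cdkn1a, H2-T23 and the homeostatic list, with 15 values between 0.931 and 1.03 on the other side of 1. The median log2 ratio of all counted genes stayed between -0.04 and 0.03. The numbers of genes past 2-fold, 109 higher and 159 lower, became 65 and 17 at a mean of at least 50 CPM, 244 and 464 with no filter on low values, and 97 lower with 10 CPM added in place of 1, where fewer or more low genes can pass by construction. Gene list members past 2-fold outside the early, heat shock and division lists numbered 48, and 30 at a mean of at least 50 CPM. Without the 19 barcodes present in both libraries, the counts were 113 higher and 164 lower.

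The early gene sum, 5.96-fold, was 6.16 without thinning in cells with at least 2000 UMIs and in every deposited cell, 6.09 when thinned to 4000 UMIs, 6.17 with TMM scaling and 6.15 with totals taken without the early and heat shock genes. It was 5.80 in cells with no UMI of Mki67, Top2a or Cdk1, and 5.78 without cells with a marker of another cell type. The heat shock sum, 1.58-fold, was 1.56 without thinning in either set of cells, 1.64 with TMM scaling, 1.63 with the reduced totals, 1.67 in cells with no UMI of the 3 division genes and 1.61 without cells with a foreign marker. The DNA replication sum, a ratio of 0.486, was 0.503 with TMM scaling and 0.520 without cells with a foreign marker. The mitosis sum, a ratio of 0.189, was 0.168 without thinning in either set of cells, 0.179 when thinned to 4000 UMIs and 0.221 without cells with a foreign marker. That last setting kept 759 and 916 cells and gave 165 genes at least 2-fold higher. The cause of these moves was not tested.

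Subsets of cells were thinned anew, so genes with few UMIs also move with the draw. Leaving out every cell with a UMI of the replication or mitosis lists left 0 cells of library 2 and gave no value, and cells with no UMI of Mki67, Top2a or Cdk1 were used instead. That setting and the one on shared barcodes were chosen after seeing the data. No paired analysis was possible because each condition has 1 library.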

Other observations

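Outside the fixed lists, 55 of the 109 higher genes remained, and those named here were chosen after their values were seen. Tsc22d3, which encodes the glucocorticoid-induced GILZ protein, had 88.2, 117 and 350 CPM in libraries 1, 2 and 3, and Per1, a clock gene that glucocorticoids also induce, had 2.45, 5.74 and 21.6 CPM. Cebpa, a myeloid transcription factor, had 238, 135 and 326 CPM, Id2 had 49.0, 54.1 and 159 CPM, and Kdm6b, a demethylase of histone H3, had 17.2, 7.57 and 53.6 CPM. Tmx4, a thioredoxin-related membrane protein, had 98.0, 94.6 and 661 CPM.

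Among lower genes outside the lists, also chosen after their values were seen, were the mitotic kinase Pbk with 44.0 CPM in library 2 and 0.457 CPM in library 3 and the histone chaperone Asf1b with 59.3 and 7.31 CPM. Cd244, a receptor of the SLAM family, had 2.45, 102 and 48.1 CPM in libraries 1, 2 and 3.

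The T or NK cell markers of library 2 lay in 69 cells, 50 of which had Gzma, the gene for granzyme A. These cells had a median of 45 UMIs over the 10 microglial markers and at least 27, against a median of 46 in the other cells of the library, and 1 of them had 3 or more UMIs of the T or NK cell list. How these UMIs came into those cells was not tested.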
